A study of Mus musculus with 4 samples.

Results

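Olanzapine is a thienobenzodiazepine antipsychotic that blocks dopamine, serotonin, histamine, muscarinic and adrenergic receptors. Its array compared the frontal cortex of mice given the drug with that of vehicle-injected mice, and 16435 of the 16504 genes of the series had a ratio on it. The array was chosen by its label alone. The mice were 13-week-old males of ddY, an outbred stock, weighing 38 to 43 g, and received 1.25 mg/kg intraperitoneally each day for 28 days. The vehicle was saline with the acetic acid left from dissolving the drug, and vehicle mice were handled in parallel. Vehicle RNA carried the dye cyanine 3 and drug RNA cyanine 5. The series holds no array with the dyes exchanged. In a ratio to vehicle, a dye effect particular to a gene therefore cannot be told apart from a drug effect. The 3 other drugs, given on the same schedule and each on 1 array of its own, were chlorpromazine and thioridazine at 25 mg/kg and quetiapine at 18.75 mg/kg, and they serve here as background.

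Each value is the log2 ratio of drug over vehicle for 1 gene, averaged over the array features (spotted probes) of that gene. The deposited table was read as log10 ratios; that scale and the drug-over-vehicle direction are likely from the labels and the scanner software, and neither is stated for the table. A reversed direction would exchange every "above" and "below". Olanzapine has 1 array, so a difference from vehicle has no replicate check and no p-value. The sources used here do not give the number of mice behind the array, or whether the 4 arrays shared a vehicle RNA. The table holds ratios without signal intensities, so how bright a spot was is not known, and the presence of cortical marker RNA in the tissue was not tested.

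In cortex, olanzapine acts on pyramidal neurons and interneurons through the D2 and 5-HT2A receptor families and on arousal through histamine H1 receptors. Immediate early genes such as Fos and Npas4 are transcribed within minutes of neuronal firing and are the usual readout of such drug action. Atypical antipsychotics are also known for weight gain and altered lipid and glucose handling, so genes of sterol synthesis and energy balance were also described.

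The olanzapine ratios had a median of 0.02 and a standard deviation of 0.59 over genes. At least 2-fold above vehicle were 763 genes (4.64%) and at least 2-fold below were 547 (3.33%), together 7.97% of the genes measured. The same limit was passed by 277 genes with chlorpromazine, 738 with thioridazine and 608 with quetiapine. The middle of the olanzapine distribution was close in width to those of thioridazine and quetiapine: the quartiles were -0.22 and 0.20 with olanzapine, -0.22 and 0.19 with thioridazine and -0.22 and 0.17 with quetiapine. The surplus of olanzapine genes therefore lay in the tails, and mostly above vehicle.

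**Figure D1:**
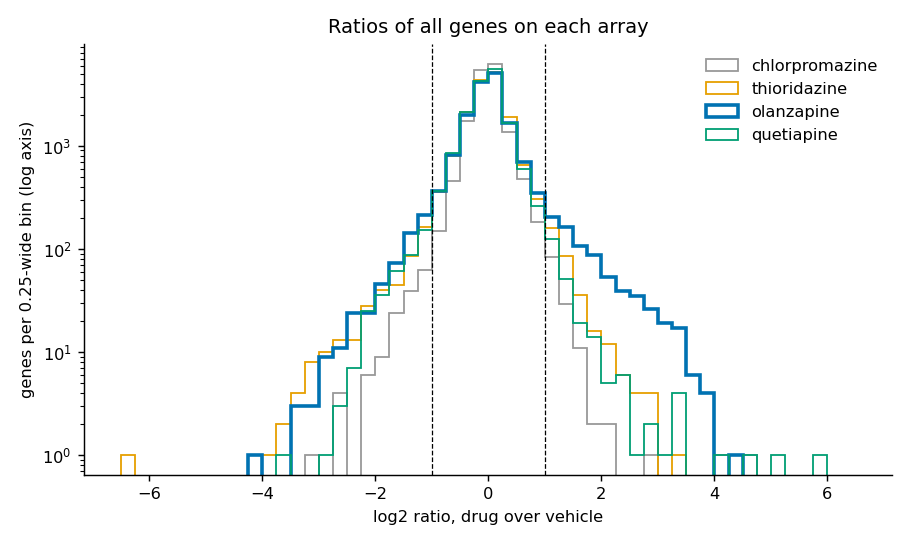
Number of genes (log axis) in each 0.25-wide bin of the log2 ratio of drug over vehicle, 1 line per array, with dashed lines at 2-fold. The olanzapine line lies above the other 3 over most of the range past 2-fold above vehicle, where it holds 763 genes against 130 with chlorpromazine, 323 with thioridazine and 233 with quetiapine.

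The features of a gene often disagreed. Of 1175 genes with 2 or more features on the array, 129 had a feature at least 2-fold above vehicle, but every feature passed in 1 gene, Vwf. Vwf encodes von Willebrand factor, the platelet-binding protein of endothelial cells, and its features read 1.48 and 1.10. The same features read 0.02 and 0.85 with chlorpromazine, 0.71 and 1.92 with thioridazine and -0.70 and 1.90 with quetiapine. Vwf was thus not particular to olanzapine, and its features lay on both sides of 0 on the quetiapine array. At least 2-fold below in some feature were 89 genes, and in 3 of them all features passed. These were the natural killer cell receptor Klrb1b, at -1.42 and -1.77, the cytochrome P450 gene Cyp2j13, at -1.22 and -1.34, and the dystrophin gene Dmd, at -1.02 and -1.30.

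Across the 1016 genes with exactly 2 features, the features correlated with a Pearson r of 0.06 and a Spearman rho of 0.12. These correlations run across genes of 1 array, and genes are not independent replicates. Pairs that represent 1 accession had an r of 0.11 (345 genes) and pairs of different accessions 0.02 (671 genes). The median gaps within these pairs were 0.34 and 0.37 log2 units. The correlations of all pairs on the chlorpromazine, thioridazine and quetiapine arrays were similarly low, 0.10, 0.09 and 0.14. The median gap between the highest and lowest feature of a gene was 0.40 log2 units, and 223 of the 1175 genes had a gap of at least 1. Genes with 1 feature passed 2-fold in 8.2% of cases and gene means over 2 or more features in 4.94%.

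**Figure D2:**
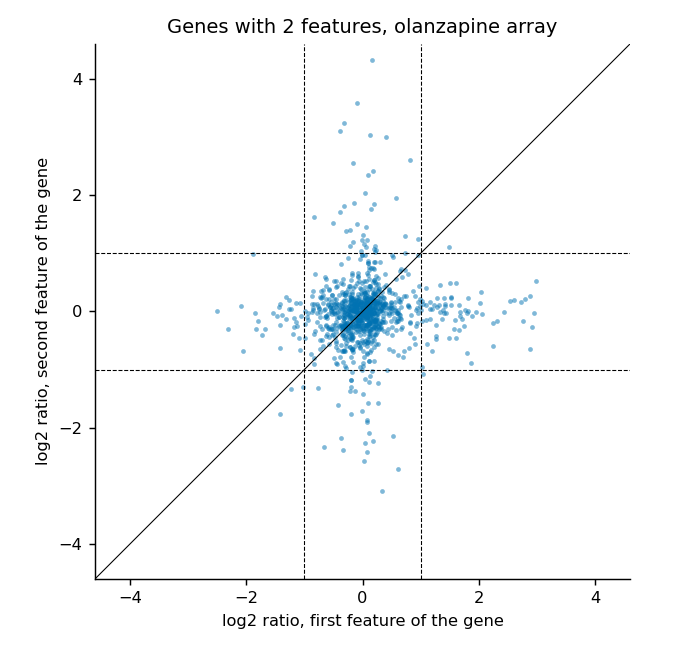
Log2 ratio of the second feature against the first on the olanzapine array, 1 point for each of the 1016 genes with exactly 2 features. The solid line marks equal values and dashed lines 2-fold; many points lie far along 1 axis and near 0 on the other, and 1 gene, Vwf, lies past 2-fold above vehicle on both.

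Accessions spotted 10 or more times give a second view of the spread. For 48 such accessions the median standard deviation between spots was 0.16 log2 units, with a range from 0.04 to 1.14. It describes these accessions and not the array as a whole. A standard deviation is a different measure from the gaps given above. The 5 lowest means among them were Gsta4 (a glutathione transferase) at -0.54 ± 0.18, Ntng1 (netrin-G1, an axonal adhesion protein) at -0.53 ± 0.13, the GABA-A receptor subunit Gabrg1 at -0.52 ± 0.19, the fatty acid oxidation enzyme Acaa2 at -0.47 ± 0.14 and the peroxide-removing enzyme Prdx2 at -0.41 ± 0.04 (SD over 10 spots each). All 10 spots of each of these genes were below 0. Prdx2 was also below vehicle on the other 3 arrays, at -0.48 with chlorpromazine, -0.22 with thioridazine and -0.33 with quetiapine.

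At the high end of the same set stood Gsdmd, which encodes gasdermin D, the pore-forming protein of pyroptosis, at 1.73 ± 1.14 (SD over 10 spots). Its spots ranged from 0.41 to 4.15, all above 0, and the gene means on the other arrays were 0.19, 0.72 and 0.46 for chlorpromazine, thioridazine and quetiapine. That spread was the highest of the 48 accessions. The neuronal granule protein gene Chgb followed at 0.45 ± 0.07, then Taf1a at 0.43 ± 0.29, Bambi at 0.27 ± 0.38 (10 spots each) and Uhrf1bp1l at 0.23 ± 0.14 (11 spots). Among frequently spotted accessions, Gsdmd was thus the only one of these 10 named genes past 2-fold.

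The 15 highest ratios belonged to genes of mixed roles, each measured by 1 feature. Abcc1, an efflux transporter for drug and glutathione conjugates, stood at 4.35, a 20.4-fold difference, against 0.32 with chlorpromazine, 0.93 with thioridazine and 0.38 with quetiapine. Cyp3a13, a cytochrome P450 of the drug-oxidising Cyp3a family, stood at 3.69 against 0.16, 1.02 and 0.54 in the same order. Both were therefore far from the other 3 drugs. Gja1, the astrocyte gap junction protein connexin 43, was at 3.59 against 0.36, 0.67 and -0.18, and Fgfr3, a growth factor receptor of astrocytes, at 3.45 against 0.76, 1.82 and 0.37. Scn9a, a sodium channel gene of sensory neurons, was at 3.89, and Zbp1, a sensor of nucleic acids induced by interferon, at 3.52.

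The rest of the 15 were Tedc1 (3.99), Tex29 (3.82), Mptx1 (3.75), Dmrta1 (3.59), the cohesin protector Sgo2a (3.52), Apol10b (3.45), the carotene-cleaving enzyme gene Bco1 (3.45), the actin-binding nebulette gene Nebl (3.45) and Palb2, the partner of Brca2 in DNA repair (3.45). The medians of these 15 genes on the other arrays were 0.41 with chlorpromazine, 1.15 with thioridazine and 0.82 with quetiapine. If the arrays shared a vehicle RNA, values on different arrays are not independent, so these are given side by side with no test.

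**Figure D3:**
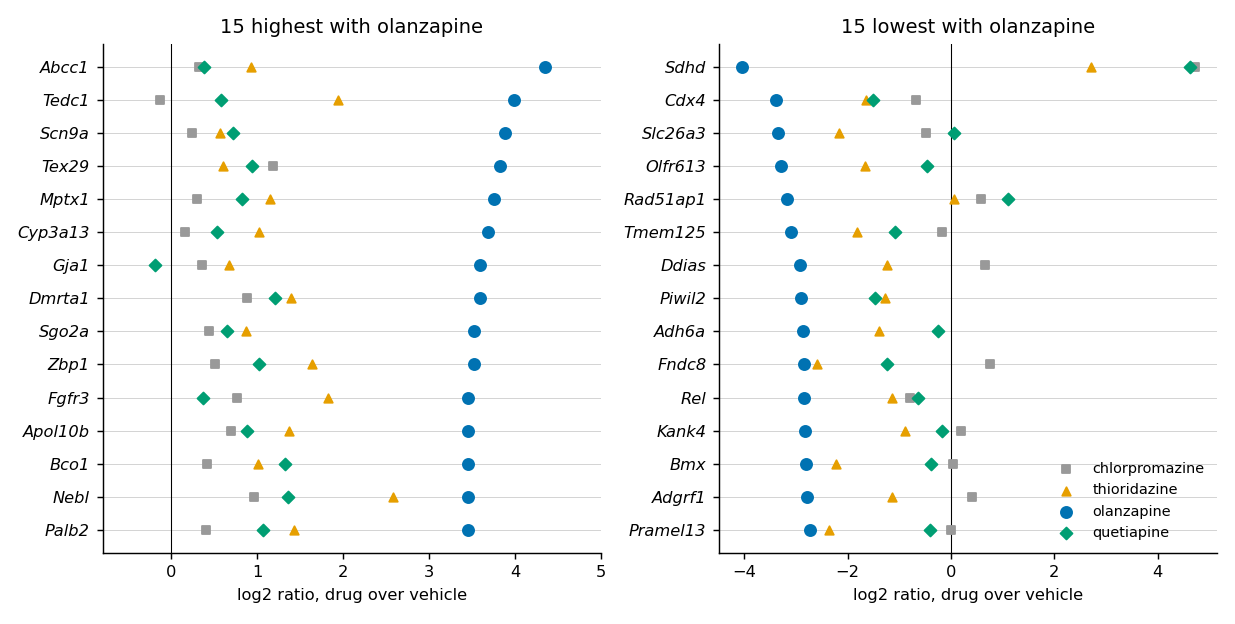
Log2 ratios of the 15 highest (left) and 15 lowest (right) named genes of the olanzapine array on all 4 arrays, 1 marker shape per drug. The olanzapine points lie between 3.45 and 4.35 on the left and between -4.05 and -2.72 on the right, and Sdhd is the gene whose other 3 points lie far on the other side of 0.

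Lowest of all was Sdhd, the membrane anchor subunit of succinate dehydrogenase, at -4.05, which is 16.6-fold below vehicle. Its ratio was 4.72 with chlorpromazine, 2.70 with thioridazine and 4.62 with quetiapine. The 5 other subunit and assembly genes of the enzyme lay near 0 with olanzapine: Sdha at -0.08, Sdhb at -0.05, Sdhc at -0.26, Sdhaf1 at 0.14 and Sdhaf2 at -0.06. The Sdhd value comes from 1 feature, and the other measured genes of the complex lay close to vehicle.

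After Sdhd came Cdx4 (-3.39), the intestinal anion exchanger Slc26a3 (-3.36), the odorant receptor Olfr613 (-3.29), the recombination gene Rad51ap1 (-3.17), Tmem125 (-3.10), Ddias (-2.92), the germline Piwi gene Piwil2 (-2.91), the alcohol dehydrogenase Adh6a (-2.87), Fndc8 (-2.84) and Rel, an NF-kappaB subunit (-2.84). Kank4 (-2.83), the tyrosine kinase gene Bmx (-2.81), Adgrf1 (-2.80) and Pramel13 (-2.72) closed the group. Each had 1 feature. Over the 15 lowest genes, Sdhd included, the median was -2.91 with olanzapine. On the other arrays it was 0.11 with chlorpromazine (12 measured), -1.40 with thioridazine (15) and -0.40 with quetiapine (13).

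A gene may be high with every drug, so the genes standing at least 2-fold outside the other 3 arrays were counted. With olanzapine 282 of 16139 genes (1.75%) lay at least 1 log2 unit above the highest of the other 3, and 103 (0.638%) lay as far below the lowest. The same total was 31 with chlorpromazine, 153 with thioridazine and 139 with quetiapine, against 385 with olanzapine. This count favours the array with the widest ratios. The standard deviation over genes was 0.59 with olanzapine and 0.33, 0.47 and 0.43 with chlorpromazine, thioridazine and quetiapine. After all arrays were scaled to one median absolute deviation from the array median, the counts were 294 for olanzapine and 137, 121 and 123 in the same order. That scaling matches the middle of the arrays and not their tails, where the olanzapine surplus lay. The largest margins above were those of Abcc1 (3.42), the ubiquitin ligase Sh3rf2 (3.41), Scn9a (3.16), Rtl3 (2.94), Gja1 (2.91), Olfr1497 (2.90), the meiosis gene Tex11 (2.79), the transcription factor Tfap2a (2.74), the lymphocyte chemokine Xcl1 (2.72) and Cyp3a13 (2.66).

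Below the other arrays, the margin was 6.76 for Sdhd, 3.22 for Rad51ap1, 2.40 for Daw1, 2.24 for the transketolase-like gene Tktl1, 2.15 for Rbm41, 2.12 for the metalloprotease Adamts9 and for the homeobox gene Pitx1, 2.02 for Tceanc, 1.96 for Zer1 and 1.95 for Kank4. Xcl1 stood at 2.45 with olanzapine against -1.23, -0.27 and -0.27 with chlorpromazine, thioridazine and quetiapine. Adamts9 stood at -2.16 against -0.03, 0.04 and 0.21. Neither set of values overlapped between olanzapine and the other drugs, which is the criterion by which they were named. Every one of these 20 genes had 1 feature.

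**Figure D4:**
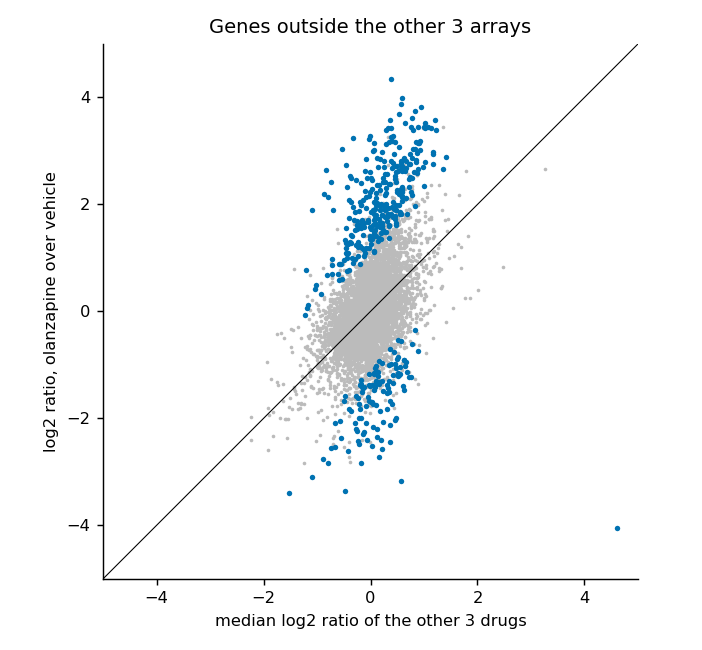
Log2 ratio with olanzapine (vertical) against the median log2 ratio of the other 3 drugs (horizontal), 1 point per gene measured on all 4 arrays, with a line at equal values. Blue points are the 385 genes at least 1 log2 unit outside the range of the other 3 arrays, 282 of them above it and 103 below.

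The difference between olanzapine and the other 3 drugs was tested across all genes with limma, in which the other 3 arrays supply the spread and the lone olanzapine array is assumed to vary as they do. A dye bias or a vehicle RNA common to the arrays cancels in this contrast. No gene passed: 0 of 16139 (0%) had a Benjamini-Hochberg adjusted p under 0.05, the lowest adjusted p was 0.135, and 1537 had an unadjusted p under 0.05, 942 higher with olanzapine and 595 lower. The median 95% interval of a gene's difference reached 0.53 log2 units to either side. In simulated data for this contrast, 0% of genes changed by 1 log2 unit were recovered, 86.5% of those changed by 2 and 99% of those changed by 4. The simulated noise used each gene's spread after limma had drawn it toward that of all genes. That noise was normally distributed and the changed genes of a run all moved by a common size, which real arrays need not follow. Recovery in the real arrays may therefore be lower, and these shares do not show how many such changes exist. Real genes with differences past 2 log2 units, such as Dbf4 at 2.56, did not pass.

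The smallest unadjusted p-values belonged to genes on which the other 3 drugs were close together. Dbf4, the activator of a kinase that starts DNA replication, stood at 2.49 with olanzapine against -0.03, -0.06 and -0.10 (difference 2.56, 95% interval 2.17 to 2.95, limma adjusted p = 0.135). Orm2, an acute-phase plasma protein gene, stood at 3.15 against 0.83, 0.88 and 0.93 (difference 2.27, interval 1.87 to 2.66, limma adjusted p = 0.135). The other 8 on the higher side were Cby3, Rtl3, the nuclear exchange factor Rcc1, the vesicle gene Sytl4, Ttc37, the choline transporter-like gene Slc44a4, Wfdc15b and Tsnaxip1, with differences from 2.04 (Tsnaxip1) to 3.14 (Rtl3). On the lower side, Rbm41 had a difference of -2.28, Adamts9 of -2.23, Zer1 of -2.10, the G-protein regulator Rgs18 of -1.74, Lce1b of -1.58, Tceanc of -2.18, Olfr1271 of -1.67, Gkn1 of -1.62 and the pancreatic amylase Amy2a5 of -1.68. For Sdhd it was -8.07, with an interval from -10.58 to -5.55 (limma adjusted p = 0.173). None of these 20 genes passed.

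The genes of olanzapine's own receptors ranged from -0.69 to 1.10. Of 28 receptor genes listed, 22 were measured, and 1 was at least 2-fold above (4.55%) and 0 below, where the shares of all genes were 4.64% and 3.33%, so these counts set the receptors apart from no other genes. Their median was 0.13 against 0.02 over all genes. Among dopamine receptors Drd4 was at 0.83, Drd2 at 0.31, Drd3 at 0.23 and Drd1 at 0.11. Among serotonin receptors Htr3a was at 0.57, Htr3b at 0.46, Htr2a at 0.41, Htr2c at 0.23, Htr1a and Htr6 at 0.04, Htr7 at -0.25 and Htr2b at -0.69. All 4 dopamine receptor genes were thus on the upper side of 0, as were 8580 of all 16435 genes, without any of them reaching 2-fold. Their median was 0.27 with olanzapine and with thioridazine, and 0.13 with chlorpromazine and with quetiapine. The whole receptor list had medians of 0.09, 0.07 and 0.11 with chlorpromazine, thioridazine and quetiapine, so this lean was not particular to olanzapine.

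Of the histamine receptors, Hrh1 was at 0.60, Hrh3 at 0.32 and Hrh2 at -0.18. The muscarinic gene Chrm3 was at 1.10, the 1 receptor past 2-fold, while Chrm4 was at 0.16, Chrm2 at -0.08, Chrm1 at -0.11 and Chrm5 at -0.28. The adrenergic genes Adra2c and Adra1b were at 0.11 and -0.07. For Htr7 the other drugs read 1.05, 0.47 and 0.45, and for Adra1b 1.15, 0.71 and 0.97 (chlorpromazine, thioridazine, quetiapine), so olanzapine was the lowest of the 4 for both. In the limma contrast no receptor gene passed, but no other gene did either, so this says nothing particular about the receptors. That contrast sets olanzapine against the other drugs and not against vehicle.

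Of 19 measured genes that make, move and break down monoamines, 0 were at least 2-fold above and 1 was below (5.26%). The shares of all genes were 4.64% and 3.33%, so these counts do not set the list apart. The 1 below was the dopamine transporter Slc6a3 at -1.01. The decarboxylase Ddc lay just inside the limit, and the other arrays read -0.56, -0.86 and -0.95. The noradrenaline transporter Slc6a2 was at 0.93 and tyrosine hydroxylase Th at -0.12. The cell bodies that make dopamine and noradrenaline lie in the brainstem, outside the tissue sampled.

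Immediate early genes leaned above vehicle with olanzapine. Of 46 measured, 33 were above 0 (8580 of 16435 for all genes), 5 were at least 2-fold above and 1 below, that is 10.9% and 2.17% against 4.64% and 3.33% of all genes, with a median of 0.26. Gadd45b, a stress and activity-induced regulator of DNA demethylation, was highest at 1.42, followed by the small Maf factors Maff at 1.35 and Mafk at 1.20, the prostaglandin synthase Ptgs2 at 1.25 and Npas4, a neuron-specific activity-dependent factor, at 1.19. Junb followed at 0.98, Rgs2 at 0.84, Klf4 at 0.82, Jun at 0.75 and Nr4a1 at 0.73. The phosphatase gene Dusp5 was at -1.37. Npas4 read -0.11, 0.17 and -0.09 with the other drugs, and Gadd45b -0.27, -0.69 and -0.34, so both stood apart from the other 3 arrays.

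The list was not uniform, though. Egr1, Egr2 and Egr3, the zinc finger factors that usually accompany Fos, were at -0.23, -0.23 and -0.26, and Arc, the synaptic effector, at -0.44. Fos itself had a mean of 0.82 that came from 2 features reading 2.25 and -0.60. With quetiapine 8 members were at least 2-fold below vehicle, among them Arc at -2.56 and Maff at -2.10, whereas with olanzapine Maff was above. No immediate early gene passed the limma contrast, which no other gene passed either, so this is not particular to the list. In the 250 bases before the RefSeq start, the cyclic AMP response element TGACGTCA, whose reverse complement is the same letters, was found in 3 of 36 listed genes with a promoter entry (Btg2, Plk2 and Dusp1) and in 1.62% of all promoters, and in 0 of the 5 genes at least 2-fold above.

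The median of the glucocorticoid-responsive list was 0.32, with 23 of 31 above 0, 3 at least 2-fold above (9.68%) and 0 below, against 4.64% and 3.33% of all genes. The 3 were the metallothioneins Mt2 at 2.08 and Mt1 at 1.12 and the transcription factor Cebpd at 1.20. Cebpb was at 0.88, Map3k6 at 0.77 and Cdkn1a at 0.54. Other standard targets did not follow: Fkbp5, a chaperone of the receptor, was at 0.20, Sgk1 at 0.32, Tsc22d3 at -0.41 and Pdk4 at -0.68. On the quetiapine array 13 of the list passed 2-fold above vehicle, while Fkbp5 (0.54), Sgk1 (0.79) and Tsc22d3 (0.87) did not reach it.

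Metallothioneins are small zinc and copper-binding proteins. They split by paralogue on this array: Mt1 and Mt2, the inducible forms, were above vehicle, Mt3, the brain form, was at -0.98 and Mt4, the form of stratified epithelium, at 0.20. Mt1 read 0.50, 0.45, 1.12 and 1.66 and Mt2 0.38, 0.64, 2.08 and 2.04 with chlorpromazine, thioridazine, olanzapine and quetiapine, so both newer drugs were higher than both phenothiazines. Mt3 read 0.14, 0.38, -0.98 and 0.42, with olanzapine the lowest. The zinc transporter genes had 1 of 13 past 2-fold, Slc30a9 at -1.28 (7.69% below, against 3.33% of all genes).

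The 250 bases before the listed starts of these 3 neighbouring genes are shown because their members diverged. They are from RefSeq (GRCm38.p6), 5′ to 3′ on the gene's strand, and capitals mark the metal response element core, searched as TGCACNC and TGCGCNC on both strands. The core occurs in 21.3% of all promoter windows, and in 3 of the 5 genes Mt1, Mt2, Mt3, Mt4 and Mtf1, the metal-sensing factor. It was found 1 time before Mt1, 3 times before Mt2, 1 time before Mt4 and 0 times before Mt3. A match is a description of letters. These windows end at the first listed start of each gene, and elements outside them were not counted. A link between the number of matches and the ratio was not tested.
Mt1 (chr8:94178839-94179088, plus strand): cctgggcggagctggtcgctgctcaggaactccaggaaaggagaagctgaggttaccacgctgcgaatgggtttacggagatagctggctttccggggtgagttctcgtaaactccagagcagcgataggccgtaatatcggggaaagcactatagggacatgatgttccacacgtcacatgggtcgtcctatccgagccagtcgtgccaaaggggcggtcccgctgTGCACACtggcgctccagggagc
Mt2 (chr8:94172368-94172617, plus strand): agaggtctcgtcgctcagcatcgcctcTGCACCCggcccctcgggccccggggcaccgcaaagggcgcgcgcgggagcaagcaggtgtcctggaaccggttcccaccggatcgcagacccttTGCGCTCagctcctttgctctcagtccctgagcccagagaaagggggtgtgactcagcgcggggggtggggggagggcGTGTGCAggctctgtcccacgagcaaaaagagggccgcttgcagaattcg
Mt3 (chr8:94152357-94152606, plus strand): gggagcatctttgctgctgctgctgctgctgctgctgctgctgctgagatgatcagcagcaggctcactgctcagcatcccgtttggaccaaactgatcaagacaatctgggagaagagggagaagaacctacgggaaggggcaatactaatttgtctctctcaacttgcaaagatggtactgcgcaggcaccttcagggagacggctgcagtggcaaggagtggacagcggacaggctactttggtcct

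Of 37 acute-phase and cytokine-response genes 26 were above 0, 5 at least 2-fold above (13.5%) and 1 below (2.7%), against 4.64% and 3.33% of all genes, with a median of 0.30. The other arrays had 1, 6 and 7 members above, with medians of 0.05, 0.23 and 0.61 for chlorpromazine, thioridazine and quetiapine. Orm2 (3.15) and Orm1 (1.97) encode orosomucoids, Fgb (1.39) a fibrinogen chain, Saa3 (1.25) a serum amyloid and Sele (1.10) the endothelial E-selectin. Haptoglobin, Hp, lay just inside the limit. Interleukin 1 beta, Il1b, was at -1.43. Saa3 read 2.34 with thioridazine and 4.12 with quetiapine and had no value with chlorpromazine. Serpina3n read 0.20, 2.07 and 2.01 with chlorpromazine, thioridazine and quetiapine against 0.40 with olanzapine, so the thioridazine and quetiapine arrays were higher for both genes. For Orm1 the other drugs read 0.50, 1.41 and 0.83 and for Fgb -0.42, 0.61 and 0.40, so olanzapine was the highest of the 4 for these and for Orm2.

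Neutrophil granule genes were mixed. Of 21 measured, 3 were at least 2-fold above (14.3%) and 2 below (9.52%), against 4.64% and 3.33% of all genes, with no test. They were Ngp at 3.26, the cathelicidin Camp at 1.16, Ms4a3 at 1.03, myeloperoxidase Mpo at -1.12 and Il1b. The calprotectin genes S100a9 and S100a8, which read 5.81 and 5.02 with quetiapine, were at 0.83 and 0.25 with olanzapine. Ngp was the same on the olanzapine and quetiapine arrays, 3.26 and 3.27, and -0.18 and 0.33 on the others.

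Among red blood cell genes, the adult globins were below vehicle while the list as a whole had a median of -0.09 and 8 of 20 members above 0. Of the 20 measured, 0 were at least 2-fold above and 4 below (20% against 3.33% of all genes): the Rh antigen Rhd at -2.48, the adult globins Hba-a1 at -1.87 and Hbb-b2 at -1.74, and the membrane protein Epb42 at -1.14. The haem synthesis enzyme Alas2 was at -0.86. The globin genes Hba-a1 and Hbb-b2 read -0.25 and -0.29 with chlorpromazine, 0.91 and 1.16 with thioridazine and 0.18 and 0.40 with quetiapine, so olanzapine was the lowest of the 4 for both. The embryonic globin Hbb-bh1 was at 0.84. In a whole tissue, fewer cells of a type and less RNA per cell cannot be told apart, and the part of blood in the neutrophil, acute-phase and other ratios was not tested.

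Interferon-stimulated genes lay on both sides of vehicle, with a few high values. Of 38 measured, 5 were at least 2-fold above (13.2%) and 1 below (2.63%), against 4.64% and 3.33% of all genes, with a median of 0.04. The same list had 0 above with chlorpromazine, 6 with thioridazine and 5 with quetiapine, with medians of -0.02, 0.34 and 0.24. Irf7, the master regulator of type I interferon production, was at 3.39 against 0.41, 1.22 and 1.44 with the other drugs. The viral RNA sensor Ddx58 was at 1.89, Mx1 at 1.41, Oas1g at 1.27 and Ifitm1 at 1.26. Their companions Ifit1 (-0.01), Rsad2 (-0.11), Usp18 (0.05), Oasl2 (0.15) and Isg15 (0.40) were near 0, while Cxcl10 was at 0.81, Ifi205 at -0.60, Psmb9 at -0.65, Ifih1 at -0.74 and Oasl1 at -1.27. The antigen presentation genes H2-Ob, at 2.56, and Tap2, at 2.17, were the 2 of 26 MHC genes (7.69%) past 2-fold.

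The interferon-stimulated response element was searched, on both strands of the same 250-base windows, as GAAA followed by any 2 bases and a second GAAA. It was found in 15 of 31 listed genes with a promoter entry, in 3.04% of all promoters, and in 1 of the 4 genes at least 2-fold above that have an entry, Oas1g. Irf7, with the highest ratio of the list, had no match in its window. Both windows are printed (RefSeq, GRCm38.p6, 5′ to 3′ on the gene's strand) with the element in capitals, as overlapping copies in Oas1g.
Oas1g (chr5:120887614-120887863, minus strand): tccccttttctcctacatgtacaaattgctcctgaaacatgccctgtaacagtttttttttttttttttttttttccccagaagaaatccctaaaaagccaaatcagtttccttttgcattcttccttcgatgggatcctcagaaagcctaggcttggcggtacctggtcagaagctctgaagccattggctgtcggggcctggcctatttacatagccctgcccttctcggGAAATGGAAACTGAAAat
Irf7 (chr7:141266425-141266674, minus strand): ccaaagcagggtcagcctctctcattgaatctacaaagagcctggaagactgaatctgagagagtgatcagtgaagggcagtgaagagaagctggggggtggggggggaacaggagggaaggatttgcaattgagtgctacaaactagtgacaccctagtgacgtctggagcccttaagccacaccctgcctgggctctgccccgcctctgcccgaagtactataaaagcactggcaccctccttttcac

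Genes of drug and xenobiotic handling had 10 of 82 members at least 2-fold above (12.2%) and 3 below (3.66%), against 4.64% and 3.33% of all genes, so the share below was that of the background. The phase 1 enzymes and their regulators held 7 of the 10 and 0 below, out of 36: Cyp3a13 at 3.69, the flavin monooxygenase Fmo5 at 2.26, Cyp1a2 at 1.49, Cyp3a25 at 1.33, Cyp2e1 at 1.29, Cyp1b1 at 1.27 and the pregnane X receptor Nr1i2, a regulator, at 1.04. Over the whole cytochrome P450 family, grouped by symbol, 5 of 68 were above (7.35%) and 3 below (4.41%), the latter including the aldosterone synthase Cyp11b2 at -2.40 and Cyp2j13, so the family lay on both sides. Cyp1a2, which oxidises olanzapine in human liver, read 0.47 with chlorpromazine, 1.04 with thioridazine and -2.11 with quetiapine. Among conjugating enzymes Ugt2b1 was at 1.98, Gstm6 at 1.07 and Sult1d1 at -1.05.

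Transporters spanned the whole range: Abcc1 at 4.35, Abcb1a, the P-glycoprotein of the blood-brain barrier, at -1.19 and the anion carrier Slco1a1 at -2.10. The median of the list, 0.08, stayed near that of all genes, and most of the P450 genes, such as Cyp2b10 at 0.18 and Cyp2d26 at 0.03, were near 0.

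**Figure D5:**
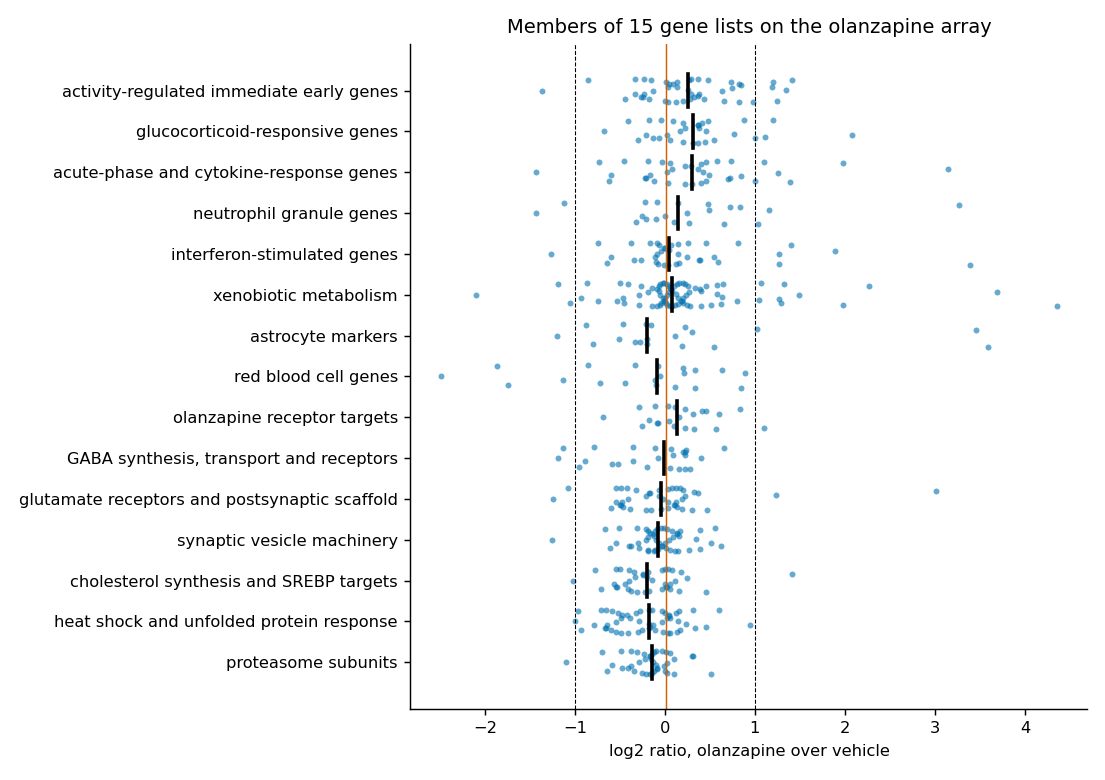
Log2 ratio of olanzapine over vehicle for every measured member of 15 gene lists, 1 point per gene, with the list median as a black bar, the median of all genes (0.02) as an orange line and 2-fold as dashed lines. List medians stay between -0.20 and 0.32, and most points past 2-fold above vehicle belong to the immune, xenobiotic and early gene lists.

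Astrocyte markers contained 2 of the highest ratios of the array and a median below 0. Of 19 measured, 3 were at least 2-fold above (15.8%) and 1 below (5.26%), against 4.64% and 3.33% of all genes. Above were Gja1 at 3.59, Fgfr3 at 3.45 and the transcription factor Sox9 at 1.02, and below was the water channel Aqp4 at -1.20. The median was -0.20. Gfap was at 0.54, Slc1a2 at 0.19, Slc1a3 at -0.47, Aldoc at -0.21, and the lipid phosphatase Plpp3 at -0.87. The markers did not share 1 direction, and 11 of 19 were below 0. Of 26 myelin and oligodendrocyte genes 1 was past 2-fold, the lineage factor Olig2 at 2.56, of 29 microglial genes the integrin Itgax at 1.05, and of 27 endothelial genes Vwf at 1.29 and Abcb1a. These 3 lists had 3.85%, 3.45% and 3.7% above, under the share of all genes.

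Genes of inhibitory synapses had 0 members at least 2-fold above and 2 of 24 below (8.33%), against 4.64% and 3.33% of all genes. The 2 were the GABA-A subunit Gabra2 at -1.19 and the glial GABA transporter Slc6a11 at -1.14. The 16 receptor subunits had a median of -0.27. Gabra6 was at -0.95, the GABA-B subunit Gabbr1 at -0.89, Gabrb2 at -0.79 (features -0.21 and -1.37), Gabrd at -0.59 and Gabrg1, with its 10 spots, at -0.52. On the other side of 0 were 7 of the 16, the highest being Gabrr2 at 0.66, with Gabra3, Gabrp and Gabrq at 0.22, 0.21 and 0.22. The synthesising enzymes Gad1 and Gad2 were at 0.40 and 0.28. Gabra2 read -0.24, -0.34 and -0.58 with chlorpromazine, thioridazine and quetiapine, and Slc6a11 -0.13, -0.20 and -0.24.

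Glutamate receptor and scaffold genes had 2 of 43 above (4.65%) and 2 below (4.65%), against 4.64% and 3.33% of all genes. The kainate subunit Grik3 was at 3.02, against 0.06, 1.21 and -0.06 with the other drugs, and the scaffold Dlg2 at 1.23. The metabotropic gene Grm6 was at -1.24 and the NMDA subunit Grin3b at -1.08. The Grm6 mean came from 2 features reading -2.50 and 0.02. The main AMPA and NMDA subunits were nearer to vehicle, with Gria1 at -0.54, Gria2 at -0.42, Gria3 at -0.32, Grin2a at -0.07 and Grin2b at -0.60. Of 50 synaptic vesicle genes 1 (2%) was past 2-fold, Rab3c at -1.26. Of 62 interneuron and neuropeptide genes 2 (3.23%) were, the neurokinin receptor Tacr3 at -1.89 and the kappa opioid receptor Oprk1 at -1.26. Both shares were under the 3.33% of all genes that were below.

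Sterol and energy genes did not stand out in number. Of 39 genes of cholesterol synthesis and SREBP targets 1 was above (2.56%) and 1 below (2.56%), against 4.64% and 3.33% of all genes. The list median was -0.20. Lss, lanosterol synthase, was at 1.41 and read 1.18, 1.24 and 1.09 with the other drugs, and Nsdhl, a sterol dehydrogenase, was at -1.02. Fatty acid genes of the list had a median of -0.22, with 10 of 11 below 0. Among 43 genes of insulin, IGF and energy balance, 2 were above (4.65%) and 1 below (2.33%). Ghrl, the ghrelin gene, was at 3.23, the insulin receptor substrate Irs3 at 1.99 and the adiponectin receptor Adipor2 at -1.33.

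Among chaperones and genes of the unfolded protein response, 0 of 53 were past 2-fold in either direction, against 7.97% of all genes. Their median was -0.18, with 35 below 0, where 7855 of all 16435 genes were below 0. It was also below 0 on the other arrays, at -0.12 with chlorpromazine, -0.31 with thioridazine and -0.39 with quetiapine. Proteasome subunits had 32 of 41 below 0, a median of -0.15 and 1 past 2-fold (2.44%), Psmc5 at -1.10. The proteasome medians were -0.08, -0.18 and -0.03 with chlorpromazine, thioridazine and quetiapine. Over the 1000 genes in any list, 52 were at least 2-fold above (5.2%) and 29 below (2.9%), close to the shares of all genes.

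Families grouped by gene symbol showed where the 2-fold genes were dense and where they were absent. None of 70 cytosolic ribosomal protein genes, 76 oxidative phosphorylation subunits, 49 translation initiation factors or 27 autophagy genes was past 2-fold, against 7.97% of all genes. The ribosomal, oxidative phosphorylation and initiation factor genes had none past 2-fold on the other arrays either, so that absence was not particular to olanzapine. Of 76 mitochondrial ribosomal protein genes 2 were below (2.63%, against 3.33% of all genes), Mrpl57 at -1.58 and Mrpl41 at -1.52. By contrast 6 of 23 defensins (26.1%, against 4.64% of all genes) were at least 2-fold above, led by Defa20 at 2.71, Defb35 at 1.71, Defb10 at 1.68 and Defb8 at 1.38, and their median of 0.39 was the highest of the 43 families with at least 20 measured genes. Defensins are antimicrobial peptides of epithelia, and Defb29 was below at -1.05.

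Growth factor ligands of the Fgf, Bmp, Wnt and Tgfb names had 9 of 67 at least 2-fold above (13.4%) and 1 below, including Bmp8b at 2.05, Fgf16 at 1.60, Wnt10b at 1.53 and Wnt8b at 1.47, with Bmp2 at -1.14. Of 55 Fox and Sox factors 6 were above (10.9%) and 2 below, with Sox8 at 2.13 and the stem cell factor Sox2 at 1.83. Of 48 collagens and laminins 5 were above (10.4%) and 0 below, with Col8a2 at 2.01, Col6a6 at 1.90, Lama4 at 1.70 and Col5a3 at 1.28. These shares exceeded the 4.64% of all genes, without a test.

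Potassium channel genes had 7 of 73 above (9.59%) and 1 below (1.37%), against 4.64% and 3.33% of all genes, with no test. Kcnj5, a subunit of the G-protein-gated inward rectifier, was at 3.29, Kcnj16 at 2.10, Kcna3 at 1.99, Kcnf1 at 1.77 and Kcne1l at -1.74. Nicotinic receptor genes had 1 of 16 above (6.25%) and 4 below (25%), against 4.64% and 3.33% of all genes, with no test: the main cortical beta subunit Chrnb2 was at 1.94, while Chrnb4 was at -2.72, Chrna2 at -1.82, Chrna3 at -1.32 and Chrnb3 at -1.10. Chrnb4 read 0.20, -1.34 and 0.17 with chlorpromazine, thioridazine and quetiapine. Among 9 Toll-like receptors the single-stranded RNA sensors Tlr8 and Tlr7 were at -1.49 and -1.17 and Tlr6 at -1.13, and 0 were 2-fold above. The 3 below were 33.3% of the 9, with no test.

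Odorant receptors, of which few are transcribed in cortex, had 14 of 731 at least 2-fold above (1.92%) and 29 below (3.97%), from Olfr420 at 3.04 to Olfr613 at -3.29. Vomeronasal receptors had 4 of 115 above (3.48%) and 7 below (6.09%). Genes with testis and germ cell names had 7 of 78 above (8.97%) and 6 below (7.69%). Among those above were Tex29 at 3.82, Tex11 at 3.14, Tex13a at 2.77 and Tex37 at 2.17. The shares of all genes were 4.64% above and 3.33% below. Odorant receptors were under the first and close to the second. The testis and germ cell names exceeded both and the vomeronasal receptors the second, without a test.

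The genes past 2-fold with olanzapine are set beside their values on the other arrays, which may share the vehicle RNA. The 763 genes above vehicle had medians of 0.23 with chlorpromazine, 0.57 with thioridazine and 0.30 with quetiapine, and the 547 below had -0.05, -0.66 and -0.22. The genes were chosen for their olanzapine values, and these medians are a description with no test.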

How the data were processed

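The authors measured each drug against vehicle on 1 two-colour Agilent mouse oligonucleotide array. Per the labels, 200 ng of total RNA was used for cDNA synthesis and 750 ng of cRNA per dye was hybridised, and signals were read with version 7.1 of Feature Extraction. Dyes were normalised by LOWESS after a rank consistency filter, which removes intensity-dependent dye bias and any shift common to most genes. The deposited values were read as log10 ratios, a likely but unstated scale; centring is unstated, and the array medians were 0 for the other 3 drugs and 0.0038 for olanzapine on the log10 scale.

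Of 22393 features, 18218 had 1 gene symbol in the platform annotation, 16 had several and were left out, and 4159 were unnamed here; 18175 took their current symbol from RefSeq by Entrez identifier. Exact zeros (198 with olanzapine) were taken as missing, values were turned to log2, and features were averaged per gene. No array carries depth, and 1 array per drug limits the precision. The limit was 2-fold, with no test of olanzapine against vehicle. Olanzapine was set against the mean of the other 3 arrays with limma 3.58.1 in R 4.3.3 (Benjamini-Hochberg at 0.05, two-sided, 16139 genes), after a check on simulated data with 200 changed genes. Summaries used Python 3.11.15 with pandas 2.3.3 and numpy 2.4.6. An exact permutation of 1 array against 3 cannot reach 0.05.

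Named are the 15 highest and lowest ratios, genes whose 2 or more features all pass 2-fold, the 5 highest and lowest means among accessions with 10 or more features, up to 4 members of a list or family past 2-fold in each direction (every receptor gene; in lists with more than 4 such members the rest were also named, chosen after their values were seen), and the 10 genes on each side for limma, open places filled by the smallest unadjusted p, and for margins outside the other arrays. Clone-style names were left out. List members further named as companions of these genes (such as Fkbp5, Egr1, Ifit1 or Gad1) were chosen after their values were seen. The lists, families and members were chosen with earlier results of these data known. Alternatives were another log base, zeros kept, features not averaged, arrays centred or scaled, other fold limits, other moderation and each other drug left out.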

Additional observations from a re-analysis of the deposited data

Results flagged for a closer look

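Features with no gene name in the annotation were not used in any comparison, and they hold many large values. On the olanzapine array 1030 of 4053 measured unnamed features (25.4%) were at least 2-fold from vehicle, 360 above and 670 below, against 7.97% of named genes. At least 8-fold below were 363 of them, with a median of -4.25, and the medians of these same features were -3.28 with chlorpromazine, -4.58 with thioridazine and -4.29 with quetiapine. What these features are is not known here.

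Sdhd had a log2 ratio of -4.05 with olanzapine and lay on the other side of 0 on the other 3 arrays. The limma test of the difference did not pass (adjusted p = 0.173, difference -8.07), and the value rests on 1 feature.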

How the results depend on the processing

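No paired analysis was possible because each drug has 1 array. If the deposited values were log2 already, 24 genes would be at least 2-fold above vehicle, 3 below and 2 outside the other 3 arrays. With a 1.5-fold limit 1500 genes were above and 1365 below, and with a 3-fold limit 362 and 170. Restricted to the 1175 genes with 2 or more features, 37 means were above and 21 below, and with every feature required to pass, 1 was above, 3 below and 0 outside the other arrays. With zeros kept, each feature its own row, arrays centred or arrays scaled, these 3 counts stayed within 1.5 times. No gene passed limma in any setting, with 1088 (ordinary t statistic) to 1959 (without thioridazine) at an unadjusted p under 0.05; leaving out chlorpromazine, thioridazine or quetiapine gave 1217, 1959 and 1322, with 0 called each time. Of 32 list medians, the endothelial and the myelin lists changed sign with each feature its own row, both from values near 0, the glucocorticoid median went from 0.32 to 0.27, under the acute-phase median of 0.30, and the median of the GABA list went from -0.01 to -0.23. Unaveraged, the 10 Gabrg1 spots, from -0.79 to -0.23, enter the GABA list as 10 rows. The cause of these moves was not tested.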

Other observations

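Other families had large values in both directions, against a background over all genes of 4.64% past 2-fold upward and 3.33% downward. Among chemokines and their receptors, 5 of 50 (10%) were above with olanzapine and 5 (10%) below: Xcl1 was at 2.45 and the mucosal chemokine Ccl28 at 1.92, and the lymphoid chemokine Ccl19 was at -2.31 and Ccl4 at -1.76. Of 29 genes of the TNF family 4 were above (13.8%) and 2 below (6.9%), with Tnfrsf13b at 1.87, osteoprotegerin Tnfrsf11b at 1.82, the death ligand Tnfsf10 at 1.64 and Tnfrsf14 at -1.83. Of 50 kinesins and tubulins 5 were above (10%) and 3 below (6%). The kinesins of cell division lay on both sides, with Kif2b at 2.50, Kif2c at 2.48, Kif23 at 1.70 (the mean of features at 0.40 and 3.00) and Kif15 at -1.13, and Kif7, a regulator of hedgehog signalling, was at -1.92. Of 21 circadian genes 2 (9.52%) were at least 2-fold above, the repressor Cry2 at 1.39 and Arntl2 at 1.13.

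Ordered by feature number, the first 9063 named features had 9.41% past 2-fold with olanzapine and the next 9063 had 6.96%, and neighbouring features correlated with r = 0.14 (18125 pairs on 1 array). The sources used here do not say whether feature number follows position on the slide.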
